A study of Mus musculus with 44 samples.

Results

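Ribosome-associated RNA from Crh neurons of the amygdala was examined here for RNAs that cytosolic ribosomes are not known to translate. The table of normalised expression holds 8203 rows. Of these, 9 were taken up: the 8 rows whose symbol begins with mt-, which are encoded by the mitochondrial genome, and the row Malat1. The mt- rows are all rows with that prefix and Malat1 was added by name, after earlier results of the EXT vs TA comparison were known, so their values in that comparison are given as a description. The nuclear genes described beside them were chosen by their measured likeness to these 9 rows between mice.

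The mice were Crh-TRAP animals, first-generation offspring of a Crh-Cre line and a Cre-dependent eGFP-L10a line, heterozygous for each transgene and 10 to 16 weeks old. A Crh-Cre transgene, which is not an insertion into the Crh gene itself, switches on a GFP-tagged ribosomal protein in cells where the transgene is or once was active. Crh encodes corticotropin-releasing hormone. Tagged ribosomes were pulled down from bilateral 1 mm punches of the amygdala taken 2 h after the last session, with 1 mouse per library. Tone-alone mice (TA, n = 16) heard 5 tones without shock, fear-conditioned mice (FC, n = 12) received 5 tone-shock pairings, and extinction mice (EXT, n = 16) were conditioned and on the next day heard 30 tones in another context. Both sexes were used, with 26 males and 18 females. The labels give 5 batches. Batch 1 held 4 TA, 5 FC and 2 EXT mice, batch 2 held 5 TA, 2 FC and 3 EXT mice, batch 5 held 7 TA, 5 FC and 5 EXT mice, batch 3 held 5 EXT mice and batch 4 held 1 EXT mouse. Values are log2 CPM (reads of a gene scaled to the size of its library), written as log2 levels, on which a difference of 1 is a 2-fold difference. The reads in the listed genes numbered 13106872 to 18968009 per mouse. Animal numbers up to 28 otherwise belong to females and those from 31 to males, and within each sex they run from TA over FC to EXT. Of the 5 mice of batch 3, 22 and 25 are labelled male among numbers of females, 53 is labelled female among those of males, and 44 is labelled EXT among those of FC mice. These 4 mice were used as labelled, and the values without them are given beside the group comparison. Crh itself was measured in every mouse, at log2 levels from 3.15 to 7.17.

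The mitochondrial genome is transcribed as long precursors from which ribosomal, transfer and messenger RNAs are cut. Its mRNAs encode core subunits of the respiratory chain and are translated inside the organelle by mitochondrial ribosomes, whose RNAs are mt-Rnr1 and mt-Rnr2 and whose proteins are imported. Ribosomes that carry L10a work in the cytosol and on the endoplasmic reticulum. Malat1 is a long non-coding RNA of the nucleus that gathers in nuclear speckles, the bodies that store splicing factors. Neither kind of RNA is known as a substrate of the tagged ribosomes.

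On GRCm38, mt-Rnr1 (12S ribosomal RNA) lies at chrM:70-1024 and mt-Rnr2 (16S ribosomal RNA) at chrM:1094-2675. The complex I subunits are mt-Nd1 at chrM:2751-3707, mt-Nd2 at chrM:3914-4951, mt-Nd4 at chrM:10167-11544 and mt-Nd5 at chrM:11742-13565. The catalytic subunit of complex IV, mt-Co1, lies at chrM:5328-6872, and cytochrome b of complex III, mt-Cytb, at chrM:14145-15288. All 8 are single exons on the plus strand. Malat1 lies on the minus strand at chr19:5795690-5802672, and its longest annotated transcript is 1 exon of 6983 bases. The ends of 4 mitochondrial mRNAs are shown because they close in different ways, with capitals for the bases that belong to the stop codon. mt-Nd1 and mt-Co1 encode a whole stop codon, whereas mt-Nd4 and mt-Cytb end on a single base that the poly(A) tail completes to a stop. The last line gives the Malat1 window, chr19:5795982-5796011, that holds the longest run of A in its transcript (capitals, 12 bases), 298 bases before the annotated end. Malat1 is known to end in a triple helix rather than a poly(A) tail.
mt-Nd1: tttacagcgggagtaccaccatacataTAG
mt-Co1: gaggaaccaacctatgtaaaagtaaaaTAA
mt-Nd4: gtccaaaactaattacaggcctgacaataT
mt-Cytb: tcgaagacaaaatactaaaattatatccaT
Malat1: ttccctagctttAAAAAAAAAAAAgcaaaa

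Copies of mitochondrial DNA in the nuclear genome limit which member a short read can be given to. Among all windows of 50 bases, the read length, 62.2% of mt-Nd4 and 51.1% of mt-Co1 were identical to another annotated transcript. The share was 8.19% for mt-Nd2, 7.61% for mt-Nd5, 6.36% for Malat1 and 1.04% for mt-Rnr2. The windows of Malat1 were shared with 716 other genes. No window of mt-Rnr1, mt-Nd1 or mt-Cytb was shared in this way.

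Per length, mt-Rnr2 was the most abundant member and Malat1 the least. The place of Malat1 depends on the division by its 6983 bases. Undivided, its median CPM was 80.8, above mt-Rnr1 (71.2), mt-Nd2 (54.6), mt-Nd4 (53.7) and mt-Nd5 (45.5). The median log2 level per kb of transcript over the 44 mice was 7.68 for mt-Rnr2, 7.19 for mt-Nd1, 6.87 for mt-Co1, 6.76 for mt-Cytb, 6.22 for mt-Rnr1, 5.72 for mt-Nd2, 5.28 for mt-Nd4, 4.64 for mt-Nd5 and 3.53 for Malat1. Within a mouse, mt-Cytb exceeded mt-Rnr1 in 44 of 44 mice and mt-Nd4 exceeded mt-Nd5 in 44 of 44. Some neighbours differed by about their spread. The log2 difference between mt-Nd1 and mt-Co1 was 0.26 ± 0.26 (SD, n = 44), that between mt-Co1 and mt-Cytb was 0.23 ± 0.35 (SD, n = 44), and that between mt-Rnr1 and mt-Nd2 was 0.37 ± 0.46 (SD, n = 44). The deposited table was filtered on a minimum level in every sample, so a mitochondrial transcript under it in any mouse is not analysed here.

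These RNAs varied widely between mice. Log2 levels of mt-Rnr2 ran from 4.86 to 13.19, those of mt-Nd4 from 2.42 to 11.95, and those of Malat1 from 3.12 to 11.56. Over the 9 members, the highest mouse exceeded the lowest by 271-fold (mt-Co1) to 738-fold (mt-Nd4). The standard deviation across mice ranged from 2.18 to 2.48 on the log2 scale, against a median of 0.39 over all 8203 rows, and the members ranked between 2 and 10 in that list. Together the 8 mitochondrial rows took 0.0113% of all listed reads in TA mouse 33 and 4.16% in EXT mouse 44, with a median of 0.102%.

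**Figure D1:**
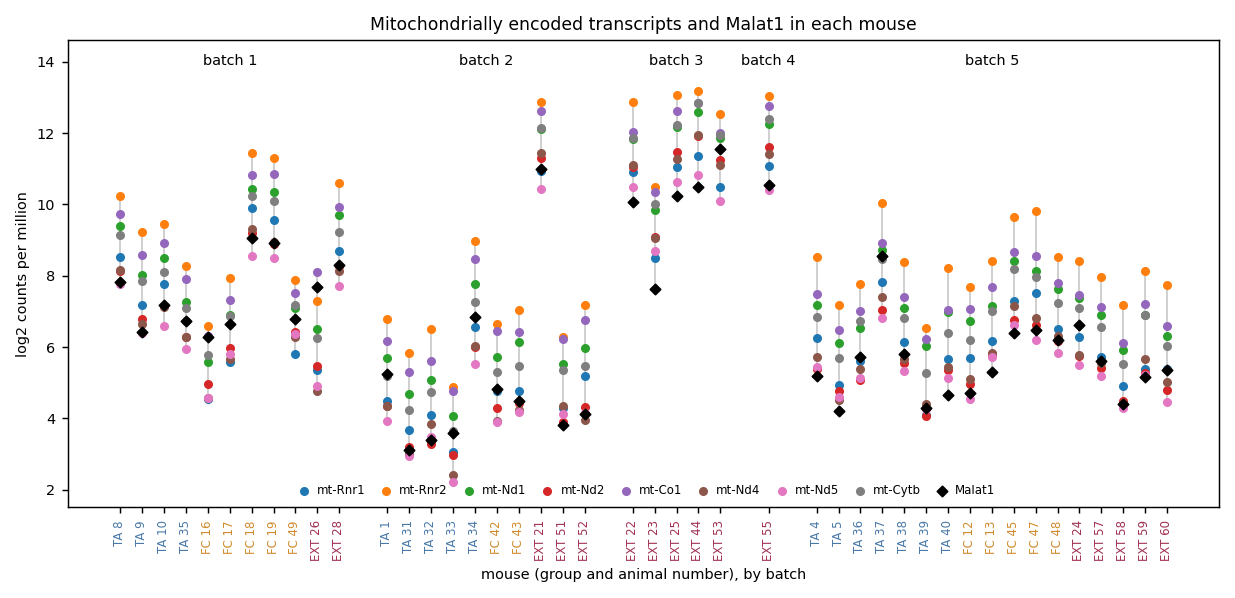
Log2 CPM of the 9 members (points; Malat1 as black diamonds) in each of the 44 mice, ordered by batch and group, with the animal number on the x axis and a grey line from the lowest to the highest member. The 9 members moved up and down together; mouse 21 of batch 2, mouse 55 of batch 4 and 4 of the 5 mice of batch 3 reached mt-Rnr2 levels of 12.5 or more.

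The high values were concentrated in a few EXT mice. Over groups, the mean log2 level of the 8 mitochondrial rows had a lowest, median and highest value of 3.50, 6.41 and 8.89 in TA, of 5.13, 6.77 and 9.99 in FC, and of 5.00, 7.87 and 12.20 in EXT. Malat1 had 3.12, 5.47 and 8.54 in TA, 4.50, 6.34 and 9.07 in FC, and 3.80, 7.66 and 11.56 in EXT. The 3 groups overlapped over most of their range, and only EXT mice went above 10 for either measure.

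Batch 3 held most of those mice. Mean log2 levels of the mitochondrial rows there were 11.52 (mouse 22), 9.5 (mouse 23), 11.82 (mouse 25), 12.20 (mouse 44) and 11.41 (mouse 53). Malat1 in the same mice was at 10.05, 7.64, 10.24, 10.50 and 11.56. The single mouse of batch 4, mouse 55, had 11.87 for the mitochondrial mean and 10.54 for Malat1. These 6 mice were all EXT mice, so in batches 3 and 4 the batch and the group cannot be told apart.

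The batches that held all groups give the comparison inside a batch. In batch 1 the mitochondrial mean was 8.89, 7.58, 7.95 and 6.97 in the 4 TA mice, 5.36, 6.5, 9.99, 9.81 and 6.82 in the 5 FC mice, and 6.08 and 9.03 in the 2 EXT mice. The values of EXT and TA mice overlapped. In batch 2 it was 5.12, 4.10, 4.57, 3.50 and 7.07 in TA, 5.13 and 5.33 in FC, and 11.73, 5.00 and 5.37 in EXT. Mouse 21 alone stood far above the rest of batch 2. In batch 5 it was 6.70, 6.31, 5.36, 6.33 and 5.8 in EXT, 6.0, 6.72, 7.85, 7.7 and 7.0 in FC, and between 5.11 and 8.15 with a median of 6.28 in TA. The EXT mice of batch 5 lay inside the range of its TA mice.

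**Figure D2:**
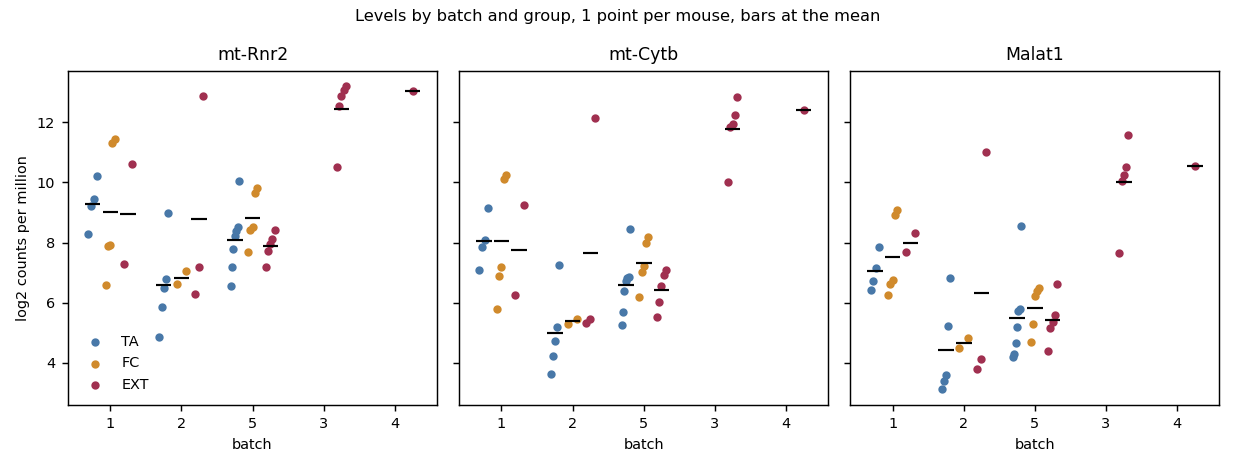
Log2 CPM of mt-Rnr2, mt-Cytb and Malat1 by batch, with batches that held TA, FC and EXT mice first, 1 point per mouse and bars at the mean. The groups overlap inside batches 1, 2 and 5, apart from mouse 21 in batch 2, and the EXT mice of batches 3 and 4 lie above all other groups except for mouse 23.

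Malat1 was less tightly bound to the mitochondrial rows than these were to each other. In EXT mouse 26 of batch 1 its log2 level was 7.69 against a mitochondrial mean of 6.08, the widest excess of the series at 1.61. In mouse 23 of batch 3 it lay 1.86 below the mitochondrial mean, the widest deficit. Mouse 37, a TA mouse of batch 5, had a Malat1 level of 8.54 when the other 6 TA mice of that batch lay between 4.21 and 5.79.

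The question of the design was whether fear conditioning or extinction changed these RNAs in Crh neurons. In the limma fit with batch number and sex as covariates, EXT vs TA gave log2 fold changes from 2.02 ± 0.72 (SE) for mt-Rnr2 to 2.53 ± 0.81 (SE) for mt-Nd2, with 2.15 ± 0.72 (SE) for Malat1. All 9 members passed an FDR of 0.05, where 21.4% of all rows did and 10.4% passed as higher in EXT. Since the members were picked with this contrast known, nothing is read from that count. Batch entered this fit as a linear trend over its number, which does not take out the level of any single batch. With batches as categories, log2 fold changes were between 0.46 ± 0.58 (SE, mt-Rnr2) and 0.70 ± 0.61 (SE, Malat1), and 0 of 9 members passed. In that limma fit 0.0244% of all rows passed, and 0 members and 1733 rows had an unadjusted p under 0.05. Without batches 3 and 4 the median over the members was 0.48 and 0 of 9 passed, where 0.0366% of all rows did. Without mice 22, 25, 44 and 53 it was 1.11 and 0 of 9 passed, where limma called 0% of rows with 1357 at an unadjusted p under 0.05.

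How far the estimates moved with mouse 21 depended on the coding of batch. Without it and with batch as a number, the median over the members was 2.04, against 2.22 with it. There 0 of 9 passed, where 13.4% of all rows did and 6.06% passed as higher. In that limma fit 9 members and 2691 rows had an unadjusted p under 0.05. Leaving out mouse 22 or mouse 25 instead also left 0 of 9. Without mouse 21 and with batches as categories, log2 fold changes of the members lay on both sides of 0, with a median of -0.11, and 2 of 9 were above 0. Without batches 3 and 4 and mouse 21, the median was 0.02 and 6 of 9 were above 0. No member passed in the last 2 fits, and in both 0 rows of all 8203 passed, with 1444 and 1244 rows at an unadjusted p under 0.05.

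**Figure D3:**
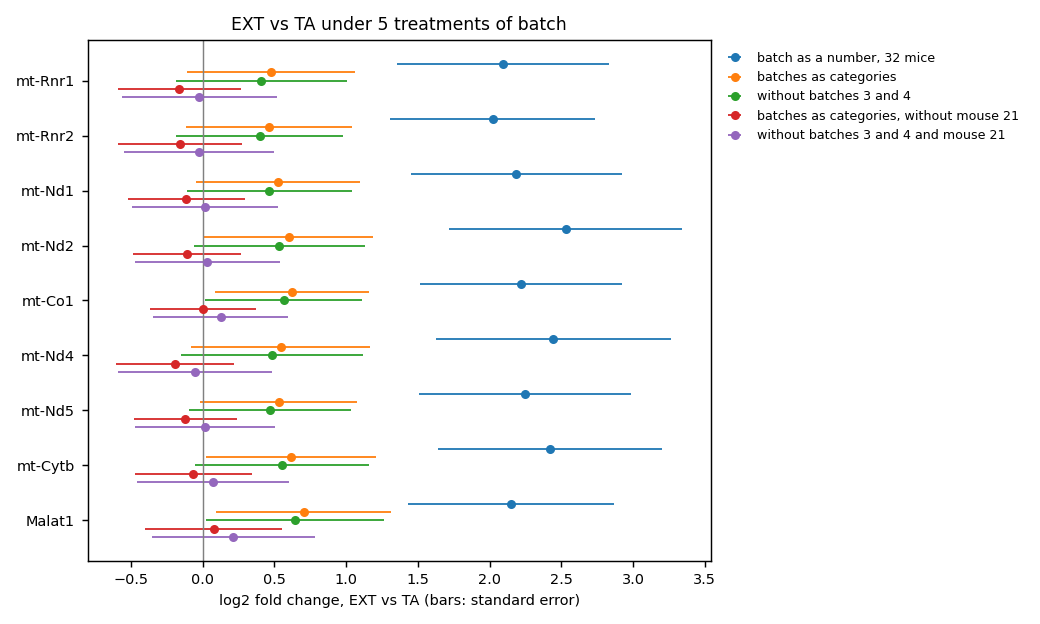
Log2 fold change (points) with its standard error (bars) of each member in EXT vs TA, fitted with batch as a number, with batches as categories, without batches 3 and 4, and for the last 2 also without mouse 21. The estimates lie between 2.02 and 2.53 in the first fit and near 0 once batches 3 and 4 and mouse 21 are out.

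Inside batches, the 9 members had EXT minus TA differences in mean log2 level from -0.59 to 0.95 in batch 1 and from -0.31 to -0.06 in batch 5. In batch 2 they ran from 1.87 to 2.65, and from -0.47 to 0.51 without mouse 21. As shares of reads, mt-Rnr2 averaged 0.106% in the 10 EXT mice and 0.0397% in the 16 TA mice of these batches. The mean within-batch difference was 0.0799 percentage points (two-sided permutation test of labels inside batches, p = 0.197) and 0.000208 without mouse 21 (permutation p = 0.989). Malat1 averaged 0.0282% in EXT and 0.00864% in TA, with a difference of 0.0242 percentage points (permutation p = 0.0965) and of 0.00223 without mouse 21 (permutation p = 0.557).

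In FC vs TA no member passed. Log2 fold changes ran from 0.56 ± 0.56 (SE, mt-Rnr2) to 0.73 ± 0.53 (SE, mt-Nd2), with 0.67 ± 0.54 (SE) for Malat1. Batches as categories gave values from 0.29 ± 0.49 (SE, mt-Rnr2) to 0.42 ± 0.41 (SE, mt-Nd2). The limma fit called 0% of all rows in this comparison, and 853 rows had an unadjusted p under 0.05. All 9 estimates were above 0 in both codings of batch, and inside batches the FC minus TA differences ran from -0.47 to 0.49 in batch 1, from 0.16 to 0.48 in batch 2 and from 0.33 to 0.86 in batch 5. The members rose and fell together between mice, so a sign that they share is not 9 separate results. The same holds for counts of signs in the other comparisons. FC and EXT are compared with the same TA mice.

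EXT vs FC depended on the coding of batch and on mouse 21. Log2 fold changes ran from 1.45 ± 0.82 (SE, mt-Rnr2) to 1.81 ± 0.92 (SE, mt-Nd2) with batch as a number, and from -0.11 ± 0.71 (SE, mt-Rnr1) to 0.29 ± 0.62 (SE, Malat1) with batches as categories. No member passed in either, nor did any other row (0% of rows called; 1587 and 344 rows at an unadjusted p under 0.05 in limma). With batches as categories 2 of 9 estimates were above 0, at a median over the members of -0.04. Without mouse 21 as well, 0 of 9 were above 0 and the median was -0.55, and without batches 3 and 4 and mouse 21 it was -0.62. Without mice 22, 25, 44 and 53, with batch as a number, the median was 0.57. In batch 5, where both groups had 5 mice, EXT minus FC differences ran from -1.10 to -0.39.

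The sexes were compared in the same way. Over all 44 mice with batches as categories, the male minus female log2 difference was between -0.61 ± 0.50 (SE, mt-Nd2) and -0.49 ± 0.47 (SE, mt-Nd5), and 0 of 9 members passed, where limma called 0% of rows with 339 at an unadjusted p under 0.05. Without mouse 21, a female, the median difference was 0.11. Fitted in males alone, EXT vs TA had a median over the members of 2.20 and 0 of 9 passed, where limma called 0.0853% of rows and 0.0122% as higher, with 8 members and 2382 rows at an unadjusted p under 0.05. In females alone the median was 2.18, 0 of 9 passed and 0% of rows were called, with 8 members and 1221 rows at an unadjusted p under 0.05. The EXT vs TA difference itself was compared between the sexes in 1 model, and the median over the members was 0.18 higher in males with batch as a number and 0.43 lower with batches as categories. No member passed and 0% of rows were called in that test, with 339 and 494 rows at an unadjusted p under 0.05.

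The members differed between some batches, as did a large part of all rows. In a limma fit of batch, group and sex over all 44 mice, batch 3 exceeded the mean of batches 1, 2 and 5 by log2 differences from 3.6 ± 0.77 (SE) for Malat1 to 4.91 ± 0.78 (SE) for mt-Nd2. All 9 members passed as higher, where 22.5% of rows did and 43.1% passed in either direction. Batch 3 holds EXT mice only, so the group term there comes from the other batches. Between batches that held all groups, batch 2 was below batch 1 by log2 differences from -1.45 ± 0.68 (SE, mt-Co1) to -2.02 ± 0.70 (SE, Malat1), and 4 of 9 members passed (mt-Nd2, mt-Nd5, mt-Cytb and Malat1, limma adjusted p = 0.033, 0.023, 0.048 and 0.016). Of all rows, 22.8% passed as lower in batch 2 and 45.9% passed in either direction. Without mouse 21 the median difference of the members was -2.81 and 9 of 9 passed, where 23.2% of rows did. Batch 5 was below batch 1 for 1 of 9 members, Malat1, at -1.58 ± 0.61 (SE, limma adjusted p = 0.026). In that comparison 27.9% of rows passed as lower and 53.4% in either direction. Without mouse 21, 7 of 9 passed, where 28.8% of rows did. Batches 5 and 2 differed for 0 of 9 members, with 0.366% of rows called in limma, 0 members at an unadjusted p under 0.05 and a median of 0.70. Without mouse 21 the median was 1.44, and 0 members passed in limma although 9 had an unadjusted p under 0.05, as did 1042 of all rows.

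The members' proportions moved little against the change in their level. Within a batch and group, the 28 pairs of mitochondrial rows correlated across 39 mice with Pearson r from 0.97 to 1.00, and Malat1 correlated with each of them with r from 0.91 to 0.94. The points share the library and its scaling, and cells of at least 3 mice were used. Against the mean of the mitochondrial rows other than itself over all 44 mice, the slope was steepest for mt-Nd4 at 1.09 and mt-Nd2 at 1.08, and flattest for Malat1 at 0.91, followed by mt-Rnr2 at 0.93 and mt-Co1 at 0.94. The residual standard deviation around that line was 0.14 to 0.29 for the mitochondrial rows and 0.70 for Malat1.

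The balance of ribosomal RNAs and mRNAs differed little beside the levels. The log2 difference between the mean of both mitochondrial rRNAs and the mean of the 6 mRNAs was 0.80 ± 0.20 (SD, n = 16) in TA, 0.70 ± 0.34 (SD, n = 12) in FC and 0.51 ± 0.35 (SD, n = 16) in EXT. In the 5 mice of batch 3 it was 0.50, -0.01, 0.33, 0.12 and 0.13, in mouse 55 it was 0.26 and in mouse 21 it was 0.23. TA mice ranged from 0.28 to 1.04, so 5 of these 7 mice lay below all TA mice. FC mice of batch 1 reached values as low, with 0.04 in mouse 49 at a mitochondrial mean of 6.82. In batch 5 the difference was 0.82 ± 0.18 (SD, n = 5) in EXT and 0.80 ± 0.27 (SD, n = 7) in TA. In batch 1 it was 0.57 ± 0.35 (SD, n = 2) in EXT and 0.77 ± 0.11 (SD, n = 4) in TA, and in batch 2 it was 0.56 ± 0.45 (SD, n = 3) in EXT and 0.81 ± 0.16 (SD, n = 5) in TA. No test was made of this score over members.

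Among the other 8193 distinct genes, those most like the mitochondrial rows between mice of the same batch and group included long non-coding RNAs. The measure is Pearson r with the mean of the 8 mt- rows after subtracting the mean of each batch-by-group cell of at least 3 mice, over 39 mice. It chose these genes, so it is a description. Of the 8193, 202 had an r of at least 0.6 and 62 had an r of -0.6 or below. Without mouse 21, which leaves 36 mice in such cells, the numbers were 111 and 34.

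The 10 highest were Snhg11 (r = 0.85), Spop (0.84), Meg3 (0.83), Tdrkh (0.83), Gng13 (0.83), 2900052N01Rik (0.81), Nrsn1 (0.81), Arhgap5 (0.81), Fth1 (0.79) and Mt1 (0.79). Snhg11 is a host gene of small nucleolar RNAs and Meg3 an imprinted long non-coding RNA that is retained in the nucleus of neurons. Fth1 encodes the ferritin heavy chain that stores iron, Mt1 is metallothionein, a metal-binding stress protein, and Spop is a substrate adaptor of a ubiquitin ligase. All 10 kept a positive r in each alternative tried, and the lowest of these was 0.65 for Nrsn1 without mouse 21. The alternatives reuse most of the same mice, so the kept sign is a description. Their ranks moved more, and without mouse 21 only 4 of the 10 stayed among the 10 highest.

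For Malat1 the 10 highest were Meg3 (r = 0.92), Snhg11 (0.85), Spop (0.83), Mt1 (0.82), Arhgap5 (0.81), Fam213b (0.79), Blzf1 (0.79), Tdrkh (0.79), Tmem243 (0.79) and Efcab2 (0.77). Meg3 was thus nearly as close to Malat1 as the mitochondrial mean was (r = 0.93). Without mouse 21 both values fell to a similar range, with r = 0.88 for Meg3 and 0.87 for the mitochondrial mean. The Spearman rho of Malat1 was 0.93 with Meg3 and 0.90 with the mitochondrial mean. Of the 10 genes named here, 4 stayed among the 10 highest for Malat1 without mouse 21.

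**Figure D4:**
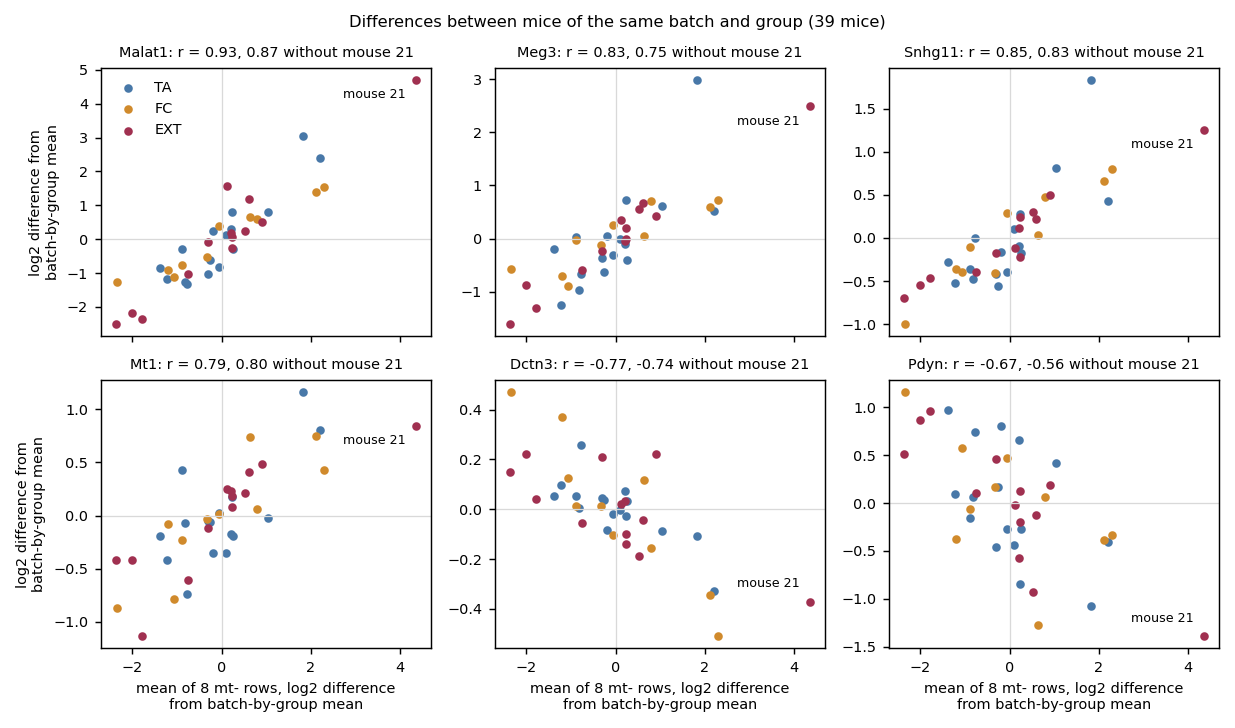
Difference of each mouse from the mean of its batch and group in log2 level, for Malat1, Meg3, Snhg11, Mt1, Dctn3 and Pdyn (y axes) against the mean of the 8 mt- rows (x axes), over 39 mice in cells of at least 3, coloured by group. The first 4 genes rise with the mitochondrial rows (r from 0.79 to 0.93) and the last 2 fall with them (r = -0.77 and -0.67); mouse 21 is marked.

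The levels of Meg3 and Snhg11 by mouse show where they were high. Log2 levels of Snhg11 were highest in TA mouse 37 (7.57), FC mice 18 (7.53) and 19 (7.39) and EXT mouse 21 (7.02), and in batch 3 they were 6.27, 6.03, 6.79, 6.99 and 6.38. Meg3 was highest in TA mouse 37 (7.44), FC mouse 18 (7.32) and EXT mouse 21 (7.30), with 6.67, 5.36, 7.23, 7.11 and 7.03 in batch 3. In the fit of batch, Snhg11 was 0.48 ± 0.31 (SE) higher in batch 3 (limma adjusted p = 0.22) and Meg3 was 1.29 ± 0.48 higher (SE, limma adjusted p = 0.029). The mitochondrial rows differed there by 4.02 or more. Other companions moved more, with 2.69 ± 0.36 (SE) for 2900052N01Rik, 2.26 ± 0.28 (SE) for Nrsn1 and 2.23 ± 0.32 (SE) for Fth1, all called.

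The 10 genes with the lowest r with the mitochondrial rows were Dctn3 (r = -0.77), Tpra1 (-0.75), Scamp3 (-0.74), Srsf2 (-0.74), Bpnt1 (-0.72), Gm15487 (-0.70), Dnaja4 (-0.69), Lman2 (-0.69), Tcf25 (-0.69) and Fam84a (-0.69). Srsf2 is a splicing factor of nuclear speckles, Dctn3 a subunit of dynactin, and Scamp3 and Lman2 are membrane proteins of the secretory pathway. For Malat1 the lowest were Tpra1 (-0.76), Ndfip1 (-0.75), Srsf2 (-0.74), Gm15487 (-0.73), Herpud1 (-0.72), Scamp3 (-0.71), Creld1 (-0.70), Mcfd2 (-0.69), Fam84a (-0.69) and Nsg2 (-0.68). Herpud1, Creld1 and Mcfd2 act at the endoplasmic reticulum. All 20 values stayed negative in each alternative tried, and the weakest was -0.45 for Lman2 with the mitochondrial rows over residuals of all 44 mice. Without mouse 21, only 1 of the 10 for the mitochondrial rows and 3 of the 10 for Malat1 stayed among the 10 lowest.

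Lists of nuclear genes with mitochondrial functions had median r values from -0.31 to 0.04. From lists drawn up with earlier results known, 11 genes of mitochondrial DNA transcription and replication were measured, and their median r with the mitochondrial rows was -0.08. The median was -0.02 for 22 genes of mitochondrial RNA processing and stability, -0.16 for 18 genes listed for mitochondrial translation, -0.21 for 77 mitochondrial ribosomal proteins and -0.13 for 4 regulators of mitochondrial biogenesis. Among nuclear-encoded subunits of the respiratory chain it was -0.09 for 37 genes of complex I, -0.22 for 8 of complex II, -0.08 for 9 of complex III, 0.04 for 11 of complex IV and -0.31 for 17 of ATP synthase. The median over all 8193 genes was -0.0043, and their 25th percentile was -0.22. Several of these medians turned sign without mouse 21, to 0.02 for mitochondrial ribosomal proteins, RNA processing genes and complex II, 0.05 for complex I and 0.07 for complex III. Without it they were -0.01 for transcription and replication, -0.07 for translation, -0.25 for biogenesis, 0.14 for complex IV and -0.24 for ATP synthase.

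In EXT vs TA with batch as a number, 0 of 11 transcription and replication genes passed, and of the 22 RNA processing genes 3 passed as higher and 4 as lower, where 10.4% of all rows passed as higher and 11% as lower. Rnaseh1, an RNase that acts in mitochondrial DNA replication, had a log2 fold change of -0.55 ± 0.23 (SE), Mterf2 -0.13 ± 0.09 (SE) and Polg, the polymerase subunit, -0.11 ± 0.08 (SE), and none of these 3 passed. Among RNA processing genes, Dhx30 fell by 0.59 on the log2 scale, Mrm2 fell by 0.45 and Angel2 rose by 0.43. The 18 genes listed for mitochondrial translation are not all translation factors, and Letm1 is not. Of these 18 genes 3 passed, all lower, namely Tufm (-0.58 ± 0.13, SE), Letm1 (-0.34 ± 0.09, SE) and Gfm1 (-0.39 ± 0.14, SE). None of these 3 lists had a call with batches as categories.

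Of the other mitochondrial lists, ribosomal proteins had 6 higher and 5 lower calls among 77 genes, complex I had 4 and 2 among 37, complex II 1 and 0 among 8, complex III 0 and 2 among 9, complex IV 4 and 0 among 11, ATP synthase 1 and 1 among 17, and biogenesis regulators 0 among 4, beside the same 10.4% and 11% over all rows. None had a call with batches as categories, and in FC vs TA none of the 20 lists had a call.

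Most measured genes on a list of long non-coding RNAs rose and fell with the members between mice. Of 33 listed genes 14 were measured, and others such as Neat1 and Miat are not analysed here. Of the 14, 12 had a positive r with the mitochondrial rows, the median was 0.61, and it was 0.55 without mouse 21. By annotation, 83 of the 8193 genes were long non-coding, with 13 among the 100 of highest r and 1 among the 100 of lowest. Besides Snhg11 and Meg3, the highest were Gas5 (r = 0.76), 1700020I14Rik (0.72), Pantr1 (0.66) and Snhg12 (0.65), whereas Tug1 stood at 0.00 and Peg13 at -0.63. Many of these, such as the host genes Gas5, Snhg6 and Snhg12, are spliced RNAs that also occur in the cytosol. In EXT vs TA 6 of 14 passed, all higher (10.4% of all rows), with Gas5 at 1.28 ± 0.34 (SE), Snhg6 at 0.70 ± 0.20 (SE) and C130071C03Rik at 0.42 ± 0.11 (SE). Coded as categories, batches left 0 of 14 calls, and Gas5 at 0.58 ± 0.20 (SE). The median log2 fold change of the list was 0.49, against 0.0047 over all genes.

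Genes for proteins of the nuclear speckle and partners of Malat1 were compared too. Of 31 genes, 1 passed as higher and 11 as lower in EXT vs TA (10.4% and 11% of all rows), with a median log2 fold change of -0.22. Hnrnpc, an RNA-binding protein, fell by 0.66 on the log2 scale, Mettl16, which binds a triple helix of Malat1, fell by 0.41, and Rnps1 fell by 0.36. None passed with batches as categories. Between mice of the same batch and group the median r with Malat1 was -0.11, that with the mitochondrial rows was -0.12 (0.03 without mouse 21), and 0 of the 31 passed in FC vs TA.

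**Figure D5:**
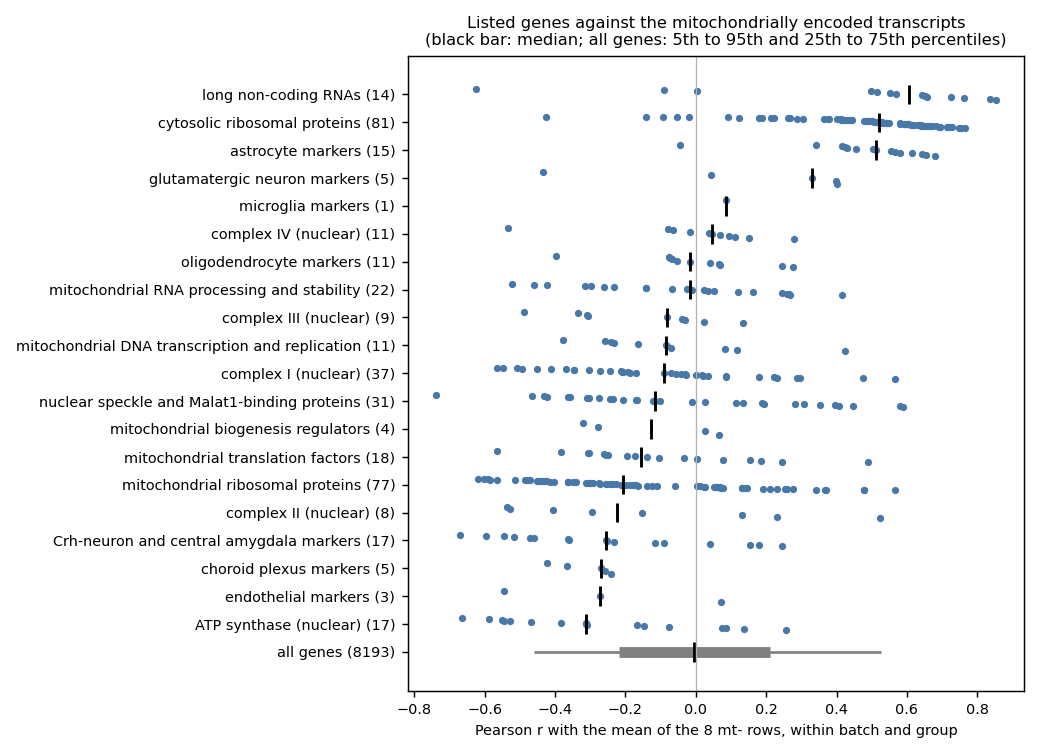
Pearson r of each listed gene (points) with the mean of the 8 mt- rows within batch and group over 39 mice, with the number of genes measured in parentheses, black bars at the median, and for all genes bars from the 5th to the 95th and from the 25th to the 75th percentile. The medians of long non-coding RNAs (0.61), cytosolic ribosomal proteins (0.52) and astrocyte markers (0.51) lie to the right, and those of mitochondrial lists between -0.31 and 0.04.

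Cytosolic ribosomal protein genes also mostly rose and fell with the members. Of 81 such genes, 76 had a positive r with the mitochondrial rows, with a median of 0.52 (0.49 without mouse 21) and of 0.51 with Malat1. In EXT vs TA 53 of 81 passed as higher (10.4% of all rows) and 0 as lower, at a median log2 fold change of 0.46, and with batches as categories 0 passed at a median of 0.28. The log2 of their summed CPM ranged from 12.93 to 14.30 in TA, from 12.85 to 14.94 in FC and from 13.18 to 14.92 in EXT.

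Markers of other cells were set beside the members because a pulldown can carry RNA from untagged cells, and in bulk samples fewer cells of a type and less RNA per cell cannot be told apart. All 15 astrocyte markers were measured, 14 had a positive r with the mitochondrial rows, and the median was 0.51 (0.44 without mouse 21). The log2 of their summed CPM was between 9.61 and 11.64 in TA, between 10.14 and 11.42 in FC and between 10.18 and 11.94 in EXT, and between 11.33 and 11.94 in batch 3. The highest were the glutamate transporter Slc1a2 (r = 0.68), the bicarbonate transporter Slc4a4 (0.65) and Fabp7 (0.64). In EXT vs TA 3 of 15 passed as higher (10.4% of all rows), and 0 with batches as categories.

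Most, but not all, markers of Crh neurons and the central amygdala had a negative r with the mitochondrial rows. Of 17 measured markers 4 had a positive r, and the median was -0.26 (-0.18 without mouse 21). Over all genes the 25th percentile of r was -0.22. The opioid peptide gene Pdyn had the lowest r at -0.67, followed by Sst (-0.60), Dlx5 (-0.55) and Penk (-0.52), and Crh was at -0.47 (-0.18 without mouse 21). The log2 of the summed CPM ran from 12.05 to 13.10 in TA, from 11.97 to 13.32 in FC and from 11.30 to 13.45 in EXT, and from 11.37 to 12.10 in batch 3. In EXT vs TA 2 of 17 passed as higher and 5 as lower (10.4% and 11% of all rows), and Crh was at -0.93 ± 0.29 (SE, called). With batches as categories 0 passed and Crh was at -0.32 ± 0.22 (SE). Slc32a1 is not analysed here.

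For other cell types few markers were measured. The median r with the mitochondrial rows was 0.33 for 5 of 10 glutamatergic markers, -0.02 for 11 of 14 oligodendrocyte markers, -0.27 for 5 of 18 choroid plexus markers, -0.27 for 3 of 11 endothelial markers and 0.08 for 1 of 11 microglial markers. The defining microglial genes Cx3cr1, P2ry12 and C1qa and the endothelial genes Cldn5 and Pecam1 are not analysed here. In EXT vs TA the measured genes of these 5 lists had 1 call in all, a glutamatergic marker that was lower. Of all rows 10.4% passed as higher and 11% as lower in that fit. The part of RNA from other cells, of intact mitochondria or of nuclei in the members' levels was not tested.

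Likeness to the mitochondrial rows also ran through the calls of EXT vs TA. With batch as a number, 844 genes outside the members passed as higher, and 93.5% of these had a positive r with the mitochondrial rows within batch and group. Of the 901 genes that passed as lower 18.0% did, and of the 6448 that did not pass 48.3% did. Without mouse 21 in the correlation, the shares were 76.2%, 35.3% and 46.3%. The correlation and the calls share EXT and TA mice, so these shares are a description.

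The library size by which the values were scaled was set beside the members. Within batch and group, its log2 correlated with the mitochondrial mean at r = -0.23 (rho = -0.25) and with Malat1 at r = -0.12 (rho = -0.11) over 39 mice. Removing the means of batch and group takes out differences between groups. Over all 44 mice without that step, r was -0.29 and -0.18. Effective library sizes ran from 14649837 to 20440351 in TA and from 12802113 to 17805609 in EXT. With log2 library size as a covariate, the median over the members in EXT vs TA was 1.64. In that limma fit 0 of 9 passed and 0 rows were called, with 449 rows at an unadjusted p under 0.05. The cause was not tested. In the mouse with the fewest mitochondrial reads, mt-Rnr2 still had 551 reads, and in the mouse with the lowest Malat1 that RNA had 141.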

How the data were processed

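RNA bound to GFP-tagged ribosomes was amplified with the SMARTer HV kit, made into libraries with NexteraXT and sequenced in paired 50-base reads. According to the submitters' processing notes and the study's methods, the authors trimmed reads with Trimmomatic 0.36, aligned them to GRCm38 with STAR, kept genes above 4 CPM (reads scaled to library size) in all samples with edgeR, removed outlier samples and normalised with limma voom. The deposited values are log2 CPM, and no correction for batch is stated. Since voom adds a fixed offset, every value could be turned back into a read count (within 0.00177 of a whole number), with 13106872 to 18968009 reads in the listed genes per mouse and effective library sizes, as scaled by the authors, of 12802113 to 20440351.

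Groups, batches and sex were taken from the labels. Each pair of groups was fitted with limma 3.58.1 in R 4.3.3 over all 8203 rows, with batch as a number and sex as covariates, p-values adjusted by Benjamini-Hochberg, and calls at an FDR under 0.05. Coded as a number, batch was a linear trend over its labels and not a level for each batch. Batches as categories, left-out mice or batches, scalings, weights and filters were alternatives. The recovery of read counts and the limma fit of each pair of groups were tested on simulated data. A further fit over all 44 mice compared batches, given group and sex. Shares of reads were tested with 100000 permutations of labels inside batches. Likeness was Pearson r with cell means removed, and the 10 genes at each end, and in 5 of the gene lists the 3 with the smallest p in EXT vs TA, were named by rule. Other listed genes were named after their values were seen. Long non-coding RNAs were on the list named nuclear long non-coding RNAs. Sequences and positions came from the GRCm38 reference with GENCODE annotation. The members and lists were chosen with earlier results of these data known. One mouse was 1 library, so p-values measure the spread between mice.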

Additional observations from a re-analysis of the deposited data

Results flagged for a closer look

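Each member was examined in the 7 batch-by-group cells of 4 to 10 mice, which made 63 checks, and in 4 of them 1 mouse stood apart by Dixon's criterion. Chance gives about 1 in 20. Among the EXT mice of batch 3, mt-Rnr2 in mouse 23 had a log2 level of 10.50 when the other 4 lay between 12.54 and 13.19. In the same mouse mt-Nd1 was at 9.83, with the others between 11.83 and 12.60. Among the TA mice of batch 5, mt-Nd1 in mouse 37 was at 8.72, with the other 6 between 6.04 and 7.17, and Malat1 in that mouse was at 8.54, with the others between 4.21 and 5.79.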

How the results depend on the processing

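The EXT vs TA values of the members depended on how batch was coded and on a few mice. Of 9 members called with batch as a number, 0 were called with batches as categories, without batches 3 and 4, without mice 22, 25, 44 and 53 (4 of the 5 mice of batch 3, whose sex or group label departs from the run of animal numbers), with array weights, with log2 library size as a covariate, without mouse 21, without batches 3 and 4 and mouse 21, and with batches as categories without mouse 21. In the same order, these fits called 2, 3, 0, 5, 0, 1103, 0 and 0 of all 8203 rows. The other 7 alternatives gave 7 to 9 calls. Of all rows, the filter on a mean log2 level of at least 5 called 1552 of 5731. The rest of these alternatives called 1614 to 1771 of 8203. Leaving out 1 mouse in turn gave 0 to 9 calls, with 0 without EXT mouse 21, 22 or 25, 1 without EXT mouse 44, 53 or 55, 4 without TA mouse 31 and 5 without TA mouse 32 or 33. Of all 8203 rows, these fits called from 1079 (without EXT mouse 53) to 2209 (without EXT mouse 51). Without mouse 21, 22 or 25 they called 1103, 1144 and 1105 rows. Without batches 3 and 4 and mouse 21, log2 fold changes turned to -0.024 for mt-Rnr1, -0.029 for mt-Rnr2 and -0.052 for mt-Nd4. With batches as categories without mouse 21 they turned to -0.16 for mt-Rnr1, -0.16 for mt-Rnr2, -0.11 for mt-Nd1, -0.11 for mt-Nd2, -0.19 for mt-Nd4, -0.12 for mt-Nd5 and -0.067 for mt-Cytb. The cause was not tested. The settings without mouse 21 were chosen after seeing the data.

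In FC vs TA and EXT vs FC, 0 members were called under each of the 15 alternatives and with each mouse left out. Of all 8203 rows, at most 2 were called in any of these fits for FC vs TA and at most 12 for EXT vs FC. Without mouse 21, 9 members were called in batch 2 against batch 1 and 7 in batch 5 against batch 1, where 23.2% and 28.8% of rows passed as lower. Genes with r of at least 0.6 with the mitochondrial rows numbered 202, but 111 without mouse 21 and 88 without the 2 mice farthest from the median (21 and 18). With Malat1 they numbered 180, but 90 without mouse 21, 67 without the 2 farthest (21 and 37) and 83 by Spearman rho. Of the list counts in EXT vs TA, the 53 cytosolic ribosomal protein genes fell to 32 without mouse 21 and the 11 lower speckle genes to 6. In that fit 6.06% of all rows passed as higher and 7.39% as lower. No paired analysis was possible because replicate numbers were given in accession order and pair no mice. Batches 3 and 4 hold EXT mice only, which limits what the group term can show.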

Other observations

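Transcript features of the genes most like the members were not used to choose them. The 100 genes with the highest r with the mitochondrial rows had a median longest transcript of 3277.5 bases and a median GC content of 46.8%, and 13 of them were annotated as long non-coding. The 100 with the lowest r had medians of 2411.5 bases and 51.9% GC, and 1 was long non-coding. Over all 8193 genes the medians were 3388 bases and 49.3%, with 83 long non-coding genes. For Malat1, the 100 highest had 3238 bases, 46.3% GC and 13 long non-coding genes, and the 100 lowest had 2580.5 bases, 50.7% GC and 1. These values are given as a description, since genes are not independent and share the libraries.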
